A study of Rattus norvegicus with 24 samples.

Results

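The Hedgehog pathway genes Gli1, Gli2, Gli3, Ptch1, Smo, Hhip, Shh and Ihh were followed in urethral mRNA of rats after simulated vaginal delivery (SVD). They were chosen by symbol, each matched 1 row of the table of normalized counts, and together they are 8 of its 32883 genes. The rats were 12-week-old female virgin Sprague-Dawley animals, and all of them, controls included, had pudendal nerve crush with vaginal distension, so no uninjured urethra is among the groups. The injection into the aorta followed the injury and held saline, allogeneic mesoangioblasts (MABs allo) or allogeneic mesoangioblasts that overexpress VEGF (MABs allo-VEGF). Urethras were taken at 3d or 7d, which gave 6 groups of 4 samples. Mesoangioblasts are vessel-associated progenitor cells, here grown from skeletal muscle and marked by a lentiviral vector with eGFP and luciferase, and the VEGF cells carried a further vector with VEGF165 and a truncated CD34. The labels call the cells MAB and VEGF MAB, and at 7d they mark recovery in MABs allo-VEGF replicates 6 and 7.

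Shh and Ihh are secreted ligands, and Ptch1 is their receptor. Without ligand Ptch1 keeps Smo, the membrane protein that carries the signal inward, inactive, and with ligand the Gli transcription factors turn on their targets. Gli1 is an activator and, like Ptch1 and the ligand-binding decoy Hhip, is itself a target, so that its mRNA is commonly read as a measure of pathway activity. Gli2 acts mainly as an activator, and Gli3 is largely processed to a repressor. In the lower urinary tract Shh is made by the epithelium, and Gli1 and Ptch1 are expressed in the stroma that responds to it.

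The Gli proteins bind the sequence GACCACCCA, and the Ptch1 promoter is shown because it holds this sequence while the Smo promoter, whose gene fell along with Ptch1 at 3d, does not. The promoters span 250 bases before to 50 bases after the annotated start, 5′ to 3′ on the strand of the gene, from RefSeq on GRCr8 (Ptch1 chr17:1555321-1555620, Smo chr4:59310834-59311133, both on the plus strand). Capitals mark the match, which is on the strand opposite to the gene.
Ptch1: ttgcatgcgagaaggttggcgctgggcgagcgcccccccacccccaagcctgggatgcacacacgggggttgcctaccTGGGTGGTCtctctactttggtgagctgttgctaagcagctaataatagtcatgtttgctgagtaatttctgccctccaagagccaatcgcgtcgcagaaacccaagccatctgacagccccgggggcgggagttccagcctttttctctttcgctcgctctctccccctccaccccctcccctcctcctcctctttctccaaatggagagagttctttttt
Smo: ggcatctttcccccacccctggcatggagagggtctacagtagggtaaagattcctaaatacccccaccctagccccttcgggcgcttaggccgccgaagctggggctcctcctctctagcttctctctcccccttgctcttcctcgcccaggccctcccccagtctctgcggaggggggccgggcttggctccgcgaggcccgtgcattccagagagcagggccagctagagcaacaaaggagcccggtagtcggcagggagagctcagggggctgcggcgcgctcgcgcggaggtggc
The match lies at position -172 from the start of Ptch1. Of the 5 promoters found for the 8 genes (Ptch1, Smo, Hhip, Gli2 and Gli3), 1 held the sequence on either strand, and of all 33469 promoters in the reference 129 did (0.385%). A match is a description of these letters and not a measured binding site.

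Samples held 2170695 to 10166052 reads on genes (median 5246798). At 3d the MABs allo samples were the shallowest, with 2170695 to 4491900 reads against 4851797 to 5249467 in saline and 3042531 to 4261098 in MABs allo-VEGF. All values below are normalized counts, in which 1 read was worth 1.67 to 9.23. Saline replicate 6 and MABs allo-VEGF replicate 4 at 3d stood apart from their groups on the first principal component (54.6 against -52.3 to -6.43, and 0.70 against 57.3 to 75.2). Results at 3d are given with all 24 samples and, beside them, with the 22 that remain without these 2. On this component MABs allo at 3d (49.8 to 90.1) lay apart from the other saline samples, but saline replicate 6 lay within the MABs allo range. The 2 libraries are thus the saline sample that lies among the cell groups and the MABs allo-VEGF sample nearest the other saline samples. Leaving them out therefore widens the differences from saline by its construction, and a call made only in the 22 samples is a description of those samples and no further support. The labels do not say whether each sample is 1 animal or which samples were prepared and sequenced together. Each p thus covers the spread between these samples. A difference in handling between days or between treatments cannot be told apart from the day or the treatment. The labels begin with the day in every group except MABs allo at 3d, and the reason is not given. Whether that group was handled differently was not tested. Every sample held smooth muscle, skeletal muscle and epithelial markers, with summed levels of at least 24165, 29960 and 2450.

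**Figure D1:**
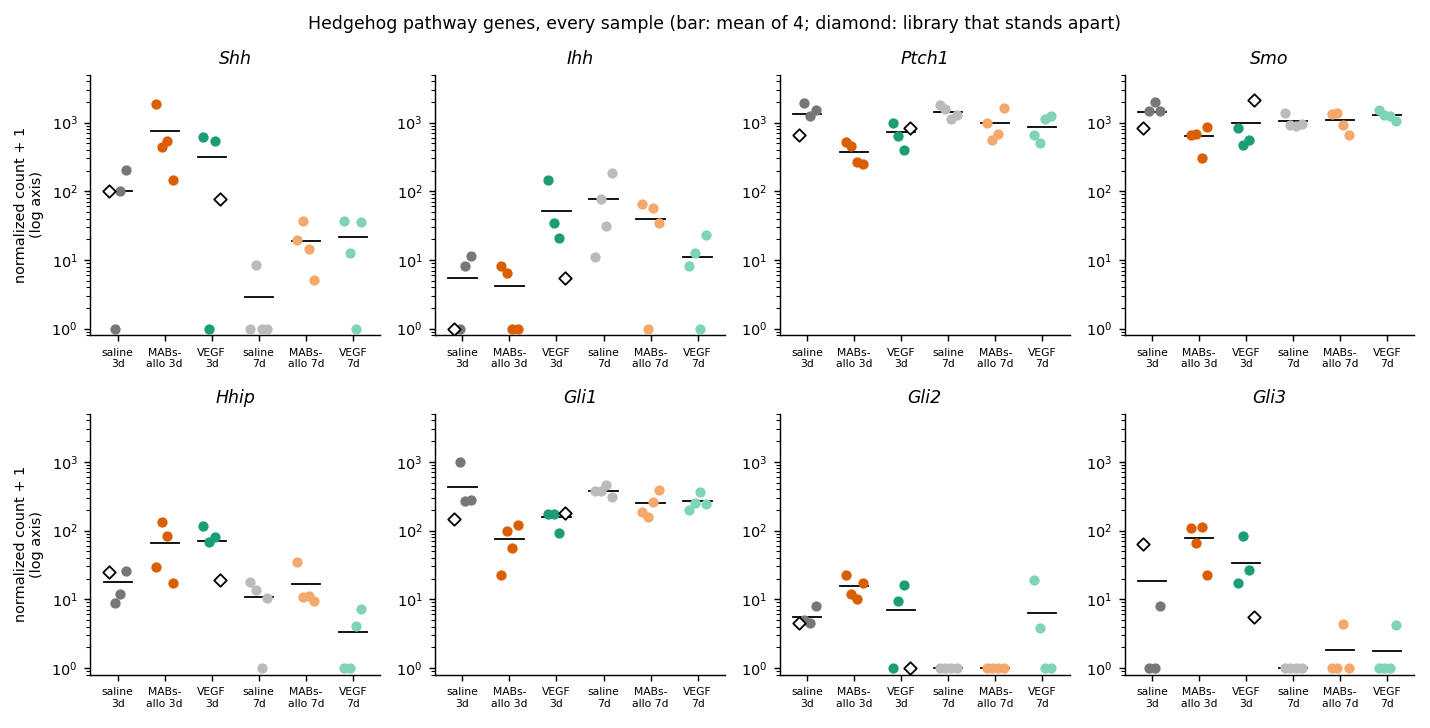
Normalized counts plus 1 (log axis) of the 8 genes in each of the 24 samples, by group, where VEGF stands for MABs allo-VEGF, the bar is the mean of 4 and open diamonds are saline replicate 6 and MABs allo-VEGF replicate 4 at 3d. Gli1 and Ptch1 are lowest in MABs allo at 3d, at 7d Gli3 is at 3.34 or less and Shh at 36.4 or less, and Ihh is at 10.6 or less in saline and MABs allo at 3d.

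MABs allo and saline at 3d differed in 4 of the 8 genes. Gli1, Ptch1 and Smo fell and Gli3 rose (limma on log2(normalized count + 1), called where the log2 fold change passed 1 in size and the adjusted p was under 0.05), against 12.3% of the 16287 genes tested. In MABs allo-VEGF against saline 0 of 8 were called (limma, 3 at an unadjusted p below 0.05), where 0.0307% of all genes were. Without the 2 libraries the calls in MABs allo were the same 4 genes (background 18.1%), and in MABs allo-VEGF 3 genes were called, Ptch1 and Smo lower and Gli3 higher (background 13.6%). Both comparisons share the saline samples. In a fit of only the 2 groups compared, none of the 8 passed for MABs allo either, where limma called 0.0304% of all genes (Gli1 at an adjusted p of 0.079 and Ptch1 at 0.061). In whole tissue, fewer cells of a type and less RNA per cell cannot be told apart.

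Gli1 measured 145, 1007, 268 and 278 normalized counts in the saline samples at 3d (replicates 6, 8, 9 and 10). In MABs allo it measured 21.3, 98.5, 55.4 and 119, the first of these from 3 reads. All 4 MABs allo samples were below every saline sample. The mean was 73.6 ± 43.9 against 425 ± 393 (SD, n = 4), and the log2 fold change was -2.38 ± 0.50 (SE, adjusted p = 0.0072), or 5.20-fold lower. It remained called without any 1 sample, with log2 fold changes from -2.76 to -1.83. In MABs allo-VEGF Gli1 measured 173, 175, 90.8 and 178, overlapping saline only in replicate 6 and MABs allo only through the value of 90.8. The log2 fold change from saline was -1.11 ± 0.50 (adjusted p = 0.24), and -1.58 ± 0.55 (adjusted p = 0.051) in the 22 samples.

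Ptch1, the receptor, followed the same order of groups. In saline at 3d it measured 654, 1917, 1247 and 1499 normalized counts, and in MABs allo 511, 459.5, 268 and 244. The groups did not overlap, and the log2 fold change was -1.81 ± 0.38 (SE, n = 4, adjusted p = 0.0072), or 3.51-fold lower. MABs allo-VEGF gave 1000.3, 642, 399 and 842, of which 2 were below every saline sample. Its log2 fold change from saline was -0.86 ± 0.38 (adjusted p = 0.23) and passed in the 22 samples at -1.27 ± 0.41 (adjusted p = 0.038).

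Smo measured 819.5, 1454, 2005 and 1453 normalized counts in saline at 3d and 653, 689, 305 and 863 in MABs allo. Of the 4 MABs allo samples, 1 was above saline replicate 6, and the log2 fold change was -1.22 ± 0.38 (SE, adjusted p = 0.034). This call was lost when saline replicate 8, 9 or 10 or MABs allo replicate 1 or 3 was left out, with log2 fold changes over all single omissions from -1.46 to -0.90. In the 22 samples the groups did not overlap (-1.46, adjusted p = 0.0020). MABs allo-VEGF gave 827, 475, 565 and 2097, the last being the replicate 4 that stood apart. Its log2 fold change from saline was -0.72 ± 0.38 (adjusted p = 0.32) with all samples and -1.42 ± 0.33 (adjusted p = 0.0056) in the 22.

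Gli3, the repressor-forming factor, was a gene of few reads. In saline at 3d it measured 62.0 in replicate 6 and 0, 0 and 7.04 in replicates 8, 9 and 10, and in MABs allo 107, 65.6, 111 and 21.7. The log2 fold change was 3.78 ± 1.07 (SE, adjusted p = 0.023) with all samples. With all samples saline held 20 reads, 18 of them in replicate 6, and MABs allo 43. In the 22 samples saline held 2 reads in all and MABs allo 43. The ratio of these reads, scaled as in the normalized counts, was 28.6 (95% counting interval 7.44 to 244), with limma at an adjusted p of 0.00055. The call with all samples was lost without saline replicate 8 or 9 or MABs allo replicate 1 or 3. With 24 samples edgeR and DESeq2 on the recovered reads did not call Gli3 (log2 fold changes 1.95 and 2.13, adjusted p = 0.21 and 0.26), and both called it in the 22. MABs allo-VEGF gave 16.2, 83.3, 25.2 and 4.45 normalized counts, with a log2 fold change of 2.17 ± 1.07 (adjusted p = 0.29). With all samples MABs allo-VEGF held 19 reads against the 20 of saline. Without the 2 libraries it held 18 reads against 2, a ratio of 14.7 (3.51 to 130), and limma called Gli3 (adjusted p = 0.0059). Both ratios against saline rest on leaving out saline replicate 6, which held 18 of the 20 saline reads. Their intervals pool reads over samples and do not cover the spread between samples, so they are no further support for a difference.

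Gli2 stayed at 3 reads or fewer in every sample of the 3 groups at 3d. It held 9 reads in MABs allo, 5 in saline and 4 in MABs allo-VEGF over 4 samples each, and a difference in fold is not given at this depth. Hhip, the decoy receptor, measured 24.1, 7.84, 10.7 and 24.6 normalized counts in saline at 3d, 28.4, 131, 83.1 and 16.3 in MABs allo and 114, 66.7, 80.7 and 17.8 in MABs allo-VEGF. Neither difference from saline passed the test (log2 fold changes 1.60 ± 0.92 and 1.87 ± 0.92, adjusted p = 0.24 and 0.29), although Hhip, like Gli1 and Ptch1, is a known target and its means were higher than in saline. In the 22 samples the 3 MABs allo-VEGF values lay above all saline values without passing (adjusted p = 0.092).

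**Figure D2:**
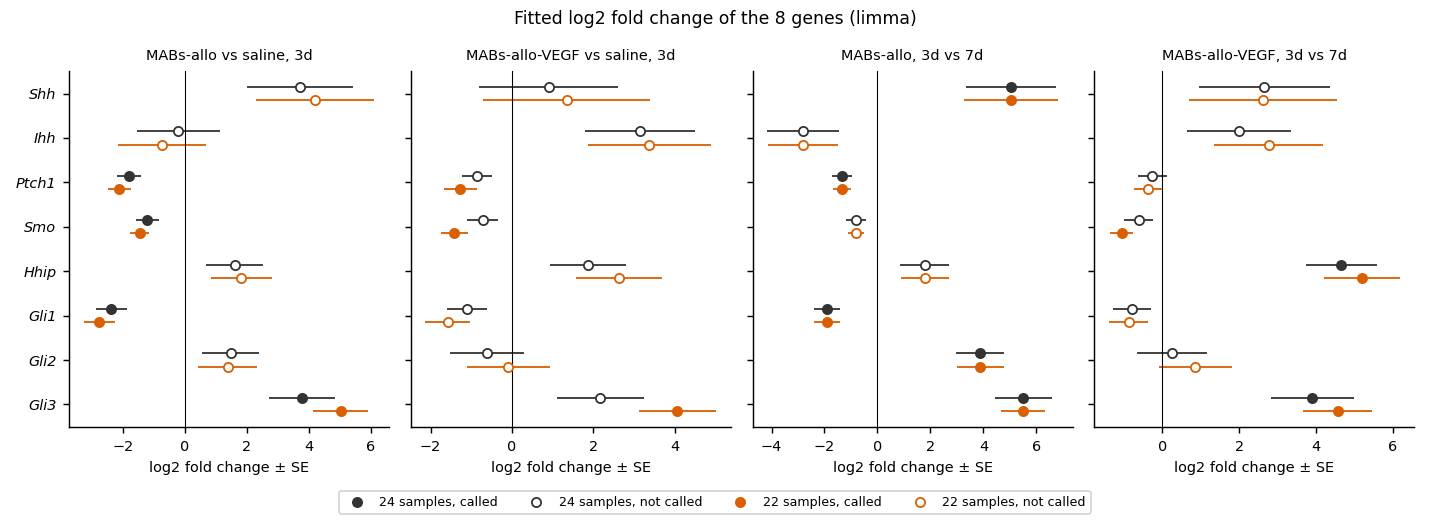
Fitted log2 fold change with its SE for the 8 genes in 4 comparisons (limma), with 24 samples in black and 22 in orange, filled where called. Gli1 and Ptch1 are below 0 in all 4 panels, and the estimates for Gli3 vs saline at 3d move from 3.78 to 5.03 in MABs allo and from 2.17 to 4.07 in MABs allo-VEGF when the 2 libraries are left out.

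The ligands differed widely among samples of 1 group. Shh measured 99.9, 0, 100.1 and 204 normalized counts in saline at 3d, 1839, 438, 535 and 146 in MABs allo and 622, 0, 545 and 75.7 in MABs allo-VEGF. The MABs allo mean of 740 ± 751 against 101 ± 83.3 in saline (SD, n = 4) gave a log2 fold change of 3.72 ± 1.71 that did not pass (adjusted p = 0.14). The 2 samples at 0 at 3d, saline replicate 8 and MABs allo-VEGF replicate 2, were also the 2 with the lowest summed level of 9 urothelial and squamous markers among all 24 samples (2850 and 2450 against 21203 to 79999 in the others). MABs allo replicate 1, with the highest Shh, had the highest such sum at 3d (58178). At 7d the sum was 29205 to 79999 while Shh was at 36.4 or less, and at 0 in saline replicates 1, 3 and 5 and MABs allo-VEGF replicate 11. The part of the epithelium in the Shh values was not tested. Ihh measured 0, 0, 7.15 and 10.6 in saline and 7.1, 5.47, 0 and 0 in MABs allo at 3d, at most 3 reads in any sample. In MABs allo-VEGF it measured 146, 33.3, 20.2 and 4.45, 36 reads against 5 in saline and 2 in MABs allo. The difference did not pass against saline (adjusted p = 0.22) or against MABs allo (adjusted p = 0.72), and 27 of the 36 reads came from replicate 1.

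To ask what VEGF added, both kinds of cells were compared directly at 3d. None of the 8 genes passed (limma, 0 of 8, 4 at an unadjusted p below 0.05, and 0 of 8 with edgeR and DESeq2), where 0.00614% of all genes did. Gli1 had a log2 fold change of 1.27 ± 0.50 and Ptch1 of 0.95 ± 0.38 (SE, adjusted p = 0.71 for both), with means of 154 and 721 normalized counts against 73.6 and 371. Gli3 had a log2 fold change of -1.61 ± 1.07 and Smo of 0.49 ± 0.38 (adjusted p = 0.86 and 0.87). A difference of Gli1 and Ptch1 between the 2 kinds of cells was thus not established with 4 samples each.

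At 7d the groups were closer. No comparison at 7d called any of the 8 genes, and limma called 0% of all genes in each. At an unadjusted p below 0.05 limma had 1014 genes in MABs allo against saline, 1033 in MABs allo-VEGF against saline and 452 between the cells, and edgeR called 0 genes in all 3 while DESeq2 called 0, 26 and 4, none of them among the 8. Gli1 measured 375, 376, 452 and 302 normalized counts in saline, 186, 159, 255 and 386 in MABs allo and 196, 254, 360 and 246 in MABs allo-VEGF. The cell groups had lower means, 246 ± 101 and 264 ± 69.0 against 376 ± 61.3 (SD, n = 4), with overlap in both (log2 fold changes -0.68 and -0.53, adjusted p = 0.92 and 0.91). Ptch1 measured 1776, 1558, 1112 and 1286 in saline, 994, 563, 686 and 1648 in MABs allo and 657, 496, 1114 and 1226 in MABs allo-VEGF (log2 fold changes -0.66 and -0.79, adjusted p = 0.85 and 0.78). Smo ranged from 888 to 1373 in saline, from 664 to 1384 in MABs allo and from 1053 to 1502 in MABs allo-VEGF. Hhip was lower in all 4 MABs allo-VEGF samples (0 to 6.3) than in MABs allo (8.3 to 34.1) at 7d, with a log2 fold change of -2.59 that did not pass (limma, unadjusted p = 0.010, adjusted p = 1). Shh was at 0, 7.47, 0 and 0 in saline, 4.15 to 36.4 in MABs allo and 0 to 36.3 in MABs allo-VEGF. Ihh ranged from 10.1 to 182, from 0 to 65.0 and from 0 to 22.1 in the same order (MABs allo-VEGF against saline, log2 fold change -2.76, adjusted p = 0.78).

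The 2 MABs allo-VEGF samples labelled recovered had Gli1 at 196 and 254, Ptch1 at 657 and 496 and Smo at 1502 and 1301, and the other two had Gli1 at 360 and 246, Ptch1 at 1114 and 1226 and Smo at 1232 and 1053. Both Ptch1 values of the recovered samples were below those of the other two and both Smo values above. Hhip (0 and 0 against 3.1 and 6.3) and Gli2 (18.1 and 2.85 against 0 and 0) separated too, at 5 reads or fewer. Gli1, Shh and Ihh overlapped between the recovered samples and the others. This is a description of 2 against 2 samples without a test, and how many of all genes separate in this way was not counted. Without that share the separations are not read as a result about recovery.

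Between 3d and 7d more of the 8 genes were called in MABs allo than in the other groups, a count whose difference was not tested. Comparing 3d with 7d in MABs allo, 5 of 8 genes were called, Gli1 and Ptch1 lower and Gli2, Gli3 and Shh higher at 3d, against 23.0% of all genes. Gli1 averaged 73.6 at 3d and 246 at 7d with no overlap (log2 fold change -1.91, adjusted p = 0.0056), and Ptch1 averaged 371 and 973 (log2 fold change -1.34, adjusted p = 0.0097). In MABs allo-VEGF 2 were called, Gli3 and Hhip, both higher at 3d (background 15.3%), and Smo was added in the 22 samples with a log2 fold change of -1.06 (adjusted p = 0.014, background 20.3%). In saline 0 of 8 were called by limma (4 at an unadjusted p below 0.05, background 3.19%), while edgeR and DESeq2 each called 3, Gli3, Shh and Ihh. For Gli3, 18 of the 20 saline reads at 3d came from replicate 6, and in the 22 samples edgeR called none of the 8 and DESeq2 only Shh.

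Gli3 was close to undetected at 7d in every group, although the libraries of 7d were deeper. It held 0, 2 and 1 reads over 4 samples each in saline, MABs allo and MABs allo-VEGF, against 20, 43 and 19 at 3d. The ratio of 3d to 7d was 51.1 (95% counting interval 13.3 to 436) in MABs allo and 33.0 (5.25 to 1373) in MABs allo-VEGF. Gli2 held 9 reads at 3d and 0 at 7d in MABs allo and passed the test (adjusted p = 0.0026), with no fold given because no sample exceeded 3 reads. Hhip fell in MABs allo-VEGF from 114, 66.7, 80.7 and 17.8 at 3d to 0, 0, 3.1 and 6.3 at 7d, 49 reads against 3, a ratio of 28.4 (9.17 to 142). Shh in MABs allo went from 146 to 1839 at 3d to 18.6, 36.4, 13.3 and 4.15 at 7d, without overlap (log2 fold change 5.04, adjusted p = 0.028). This call was lost without MABs allo replicate 1 or 3 at 3d or replicate 11 or 13 at 7d. Ihh ran the other way in saline, from 0 to 10.6 at 3d to 10.1, 77.2, 30.1 and 182 at 7d (limma adjusted p = 0.11). Whether a change from saline differed between the days was tested as an interaction, and none of the 8 passed with either kind of cells (background 0% in both, with 2212 genes at an unadjusted p below 0.05 with MABs allo and 1341 when the cells carried VEGF). In the 22 samples Gli3 passed for MABs allo (4.50, adjusted p = 0.042, background 3.56%) and Smo for MABs allo-VEGF (-1.72, adjusted p = 0.033, background 3.59%).

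Of 40 other genes of the pathway described here, 35 could be tested. At 3d 5 of the 35 differed between MABs allo and saline, 4 higher and 1 lower. This was 14.3%, close to the 12.3% of all genes, with a median log2 fold change of 0.43 beside 0.07 for all genes. Among 5 genes of ligand processing and release none passed. Dhh, the ligand made by Schwann cells, had a log2 fold change of -2.45 (adjusted p = 0.081), with means of 23.3 against 122, and Disp1, which releases ligand from the cell, had -0.71. Of the 5 receptors and co-receptors described, 0 were called by limma (1 at an unadjusted p below 0.05), and the co-receptor Boc had 0.14. Of 17 transducers and cilium genes, 4 rose. They were Prkacb (4.65, adjusted p = 0.0093) and Gsk3b (1.41, adjusted p = 0.016), kinases that mark Gli proteins for processing, Grk2 (1.47, adjusted p = 0.020), which phosphorylates Smo, and Tulp3 (4.62, adjusted p = 0.021), which carries receptors into the cilium. Prkaca, the other catalytic subunit of protein kinase A, had a log2 fold change of 0.08. Of 8 genes known as targets, Bmp4 fell by 1.61 on the log2 scale (adjusted p = 0.018), from 8088 ± 3203 to 2942 ± 1989 normalized counts (SD, n = 4), and Ccnd1 had -0.90 and Sfrp1 -0.74 without passing.

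None of these 5 calls held under every omission of 1 sample, and none held when only the 2 groups compared were fitted. The calls of Grk2 and Bmp4 were lost in 4 of 24 omissions, that of Tulp3 in 5, of Gsk3b in 2 and of Prkacb in 1, and saline replicate 8 was among the samples omitted in each case. Neither edgeR nor DESeq2 called Tulp3 with 24 samples (adjusted p = 0.072 and 0.070). In the 22 samples 7 of the 35 were called (20.0%, where 18.1% of all genes were), with Csnk1a1, another kinase of the Gli proteins (1.12), and the cyclin Ccnd2 (2.30) added to the same 5. In MABs allo-VEGF against saline 0 of 35 were called by limma with all samples (6 at an unadjusted p below 0.05). Without the 2 libraries 5 were (14.3%, where 13.6% of all genes were), with Prkacb (5.23), Gsk3b (1.79), Csnk1a1 (1.10) and Ccnd2 (2.45) higher and Bmp4 (-1.64) lower. Tulp3 and Prkacb are genes of few reads. Tulp3 held 37 reads in MABs allo and 5 in saline, all 5 in replicate 6, and Prkacb 152 against 28, of which 24 were in replicate 6.

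**Figure D3:**
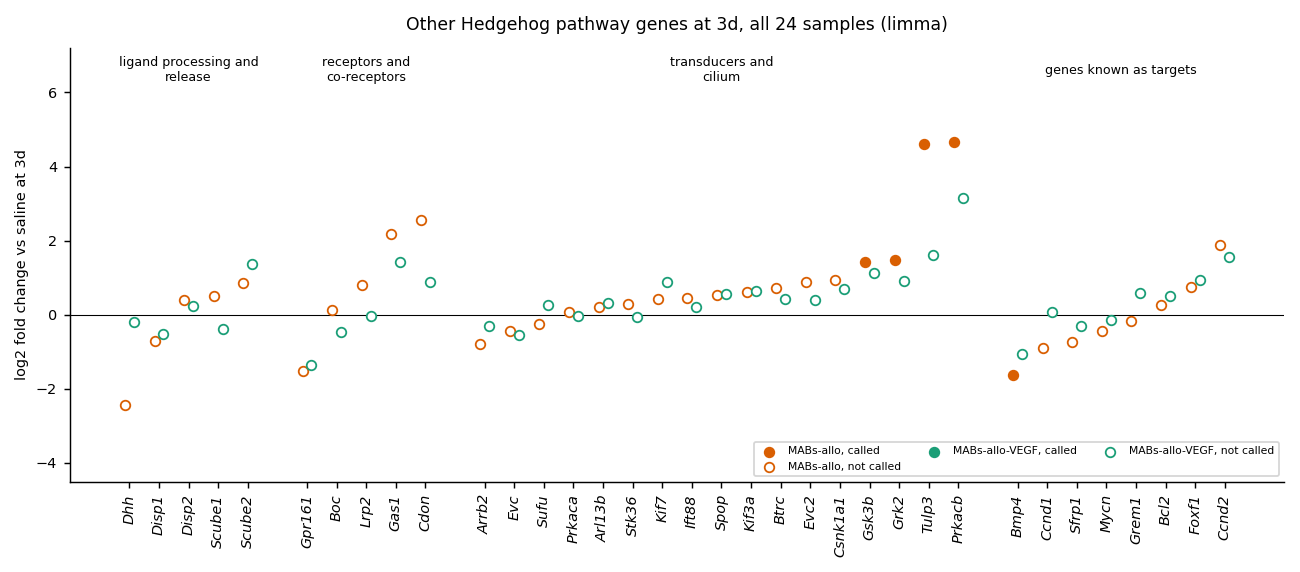
Fitted log2 fold change against saline at 3d (all 24 samples, limma) of the 35 other pathway genes described, by role, with MABs allo in orange and MABs allo-VEGF in green, filled where called. Bmp4 is the 1 called below 0 and Grk2, Gsk3b, Prkacb and Tulp3 the 4 called above 0, all in MABs allo.

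Markers of cell types were compared at 3d as well, where 12.3% of all genes were called in MABs allo against saline (18.1% in the 22 samples). In MABs allo the fibroblast markers Lum and Dcn fell by 1.69 and 1.29 on the log2 scale (2 of 7 tested, and 5 of 7 in the 22 samples), and the summed level of the 7 was 56751 to 307169 against 343636 to 519457 in saline, without overlap. The macrophage markers C1qa, C1qb and Csf1r fell (3 of 7, log2 fold changes -1.74, -2.26 and -2.11), with sums of 1022 to 11489 against 10478 to 20335. The basal epithelial keratin Krt14 rose (1 of 9 epithelial markers, 4.15, adjusted p = 0.043). The summed epithelial level overlapped between the groups, with medians of 25195 in MABs allo and 27301 in saline. The skeletal muscle gene Tnnt3 rose and the endothelial gene Cldn5 fell (1.55 and -1.18, 1 of 5 tested in each list). No marker of smooth muscle, Schwann cells, adipocytes, erythroid cells or pericytes was called with all samples. All 7 Schwann cell markers were negative in MABs allo without passing, with sums of 3231 to 9273 against 8932 to 36339. MABs allo replicate 1 had both the lowest fibroblast sum (56751) and the lowest Gli1 (21.3) of all 24 samples, while saline replicate 8 had the highest Gli1 (1007) and a fibroblast sum of 519457. This was not particular to fibroblast markers. MABs allo replicate 1 also had the lowest macrophage and Schwann cell sums of all 24 samples (1022 and 3231). Saline replicate 8 had the highest of both at 3d (20335 and 36339) and the lowest smooth muscle sum of all 24 samples (24165). The highest fibroblast sums ran otherwise. They were 955040 in MABs allo-VEGF replicate 6 at 7d and 643895 in MABs allo-VEGF replicate 4 at 3d, with Gli1 at 196 and 178. In MABs allo-VEGF at 3d the fibroblast sum was 97610 to 643895, overlapping saline. Of the 7 markers 0 passed (background 0.0307%), and 1 of 7 did in the 22 samples (background 13.6%). At 7d the saline fibroblast sums, 200964 to 299036, overlapped those of MABs allo at 3d while Gli1 was at 302 to 452. The part of these markers in the Gli1, Ptch1 and Shh values was not tested.

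**Figure D4:**
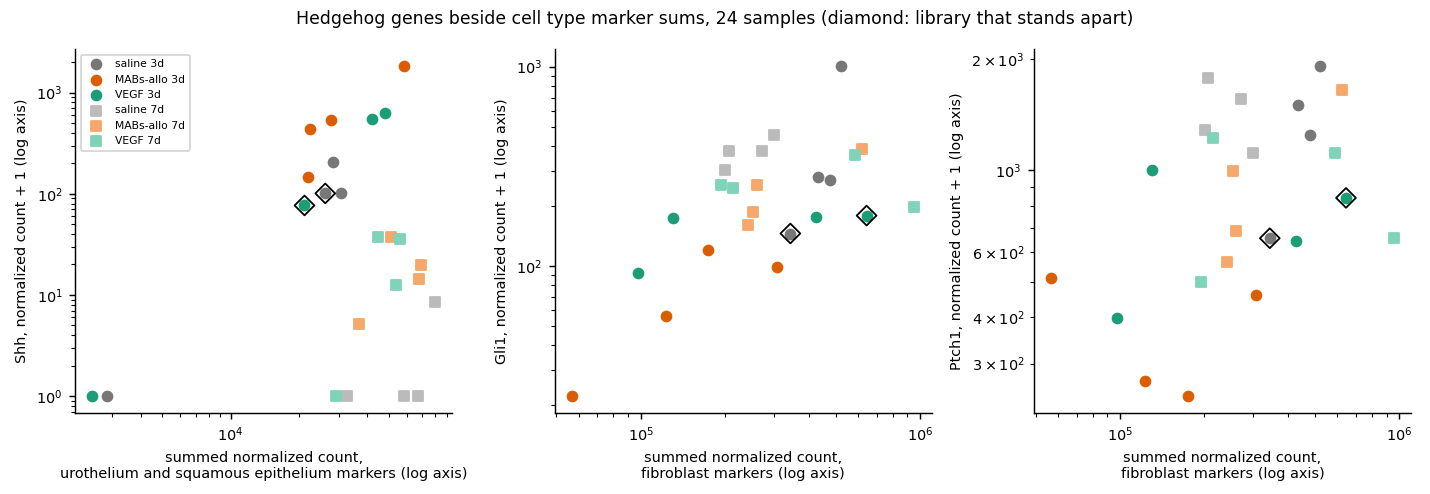
Shh beside the summed epithelial markers and Gli1 and Ptch1 beside the summed fibroblast markers in the 24 samples (log axes, circles 3d, squares 7d, diamonds the 2 libraries that stood apart, VEGF for MABs allo-VEGF). Saline replicate 8 and MABs allo-VEGF replicate 2 lie at the lower left for Shh with sums of 2850 and 2450, and MABs allo replicate 1 has the lowest fibroblast sum, 56751, with Gli1 at 21.3. The same MABs allo sample also has the lowest macrophage and Schwann cell sums, which are not drawn. The highest fibroblast sum, 955040 in MABs allo-VEGF replicate 6 at 7d, goes with Gli1 at 196.

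The genes whose levels ran most like each member over the 24 samples were found among 13846 genes, by Pearson correlation of log2 values, as a description of samples that share groups and libraries. For Gli1 they were Card19 (0.92), Man1c1 (0.91) and Taf9b (0.90), and for Ptch1 Tbc1d2b (0.85), Tcn2 (0.85) and Selenoh (0.84). For Smo they were Nsg1 (0.88), Twsg1 (0.86) and Emc1 (0.86), and for Gli3 Sept9 (0.95), AABR07043897.1 (0.95) and Osbpl9 (0.95). Shh ran most like Col17a1 (0.94), a collagen of the basal epithelial cell, followed by AABR07064386.1 (0.93) and AC131483.1 (0.91). Hhip ran most like Ptpdc1 (0.88), LOC102554315 (0.84) and Fsd1l (0.82), and Ihh like Gdpd3 (0.77), Col11a2 (0.76) and Fam25a (0.75).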

How the data were processed

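Urethral total RNA of 24 samples was sequenced as QuantSeq 3′ mRNA libraries. After trimming, the authors used HISAT2 with the Rnor6.0 genome, kept reads with 1 place of alignment, and counted them by gene in HTSeq. Normalization was by size factors from DESeq2, and what was deposited is a signal in normalized counts for each gene. Because reads are counted near the 3′ end, a transcript with another 3′ end can be missed, and levels are compared between groups only.

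In every sample 100% of values were whole multiples of 1 read within a tolerance of 0.001, so reads were recovered. The study tested counts with DESeq2. As the deposited values are normalized, limma 3.58.1 in R 4.3.3 was the main test (lmFit, eBayes with a trend, log2(normalized count + 1), genes with a mean of at least 2, 1 fit of 6 groups, two-sided, Benjamini-Hochberg over all genes tested). The study's cut-offs were kept, so a call needed a log2 fold change of more than 1 in size with the adjusted p under 0.05. DESeq2 1.42.0 and edgeR 4.0.16 were run on the recovered reads, and their fits of 22 samples were chosen after seeing the data. Further alternatives changed the pseudocount to 5, dropped the filter or raised it to 10, normalized by quantiles or to equal totals, weighted samples by quality, fitted only the groups compared, added a replicate block or left out each sample.

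Named were the 8 genes, the pathway genes called at 3d against saline or otherwise 1 to 3 per role with the highest mean, and the 3 genes most correlated with each member above a mean of 10. Members and lists were chosen with earlier results of these data known. Intervals of read ratios are 95% exact conditional intervals and cover counting error only. Promoters came from RefSeq on GRCr8, whereas the counts are on Rnor6.0, so no gene positions are given. The test scripts were checked on simulated data. Results of 1 pathway gene are not reported here.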

Additional observations from a re-analysis of the deposited data

Results flagged for a closer look

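Of 36 sets of 4 values (a member in a group) that could be tested for a sample far from the others, 6 had one. About 1 in 20 sets of normally distributed values pass the cut-off, a rate that need not hold for untransformed counts, some of few reads. At 3d the flagged sets were Gli1 in saline, with 1007 normalized counts in replicate 8 against 145 to 278 in the other samples, Gli1 in MABs allo-VEGF, with 90.8 in replicate 3 against 173 to 178, and Gli3 in saline, with 62.0 in replicate 6 against 0 to 7.04. At 7d they were Gli2 in MABs allo-VEGF, with 18.1 in replicate 6, from 5 reads, against 0 to 2.85, Smo in saline, with 1373 in replicate 1 against 888 to 950, and Hhip in MABs allo, with 34.1 in replicate 7.2 against 8.3 to 10.01. Without saline replicate 8 the log2 fold change of Gli1 in MABs allo against saline at 3d was -1.83, and without saline replicate 6 that of Gli3 was 5.03.

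A change from saline that differed between 3d and 7d was found for 2 genes in the 22 samples, Gli3 with MABs allo (4.50 on the log2 scale, adjusted p = 0.042) and Smo with MABs allo-VEGF (-1.72, adjusted p = 0.033). Leaving out the 2 libraries widens differences from saline at 3d by its construction. With all 24 samples neither passed (adjusted p = 0.35 and 0.63).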

How the results depend on the processing

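The number of members called was 4 in MABs allo against saline at 3d under most alternatives, but 0 when only the groups compared were fitted. In MABs allo-VEGF against saline at 3d it was 0 with all samples, 3 with 22 samples, 1 with sample quality weights, and 4 (edgeR) and 6 (DESeq2) with 22 samples. For saline at 3d against 7d it was 2 with quality weights, 3 with edgeR, 3 with DESeq2 and 1 with DESeq2 on 22 samples. For MABs allo-VEGF at 3d against 7d it was 4 with edgeR and 4 with DESeq2 on 22 samples. For the interaction of MABs allo and day it was 1 with 22 samples, 1 with quality weights and 2 with DESeq2 on 22 samples, and for that of MABs allo-VEGF and day 1, 1 (edgeR) and 3 (DESeq2) with 22 samples. The cause was not tested. Leaving out each sample gave 2 to 4 (2 without saline replicate 8 or 9 or MABs allo replicate 1 or 3) for MABs allo against saline at 3d, 0 to 1 for MABs allo-VEGF against saline at 3d (1 without saline replicate 6 or MABs allo-VEGF replicate 4), 0 to 1 for saline and 4 to 6 and 2 to 3 for MABs allo and MABs allo-VEGF at 3d against 7d, and 0 for the others.

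Directions that reversed were all of values not called. They were Ihh in MABs allo against saline at 3d (4 of 24 omissions of 1 sample, range -0.76 to 0.42), Shh in MABs allo-VEGF against saline at 3d (3 of 24, range -0.84 to 2.96), Gli2 in the latter (0.20 with edgeR, 0.54 and 0.70 with edgeR and DESeq2 on 22 samples), Smo between the cells at 3d (-0.012 and -0.017 with the same) and Gli3 in the interaction of MABs allo-VEGF and day (-0.77 with edgeR). Of the other fold changes, 501 kept direction and side of the threshold under the alternatives, 55 passed newly and 13 were lost, and 1103, 12 and 30 did so when 1 sample was left out.

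Genes called in MABs allo against saline at 3d numbered 1997 (1531 up) with limma, 1342 (862 up) with edgeR and 2951 with 22 samples. In MABs allo-VEGF they numbered 5, and 2213 with 22 samples, 1497 with quality weights, 397 with DESeq2 and 1 with edgeR, and for saline at 3d against 7d 520, and 31, 1852, 1386 and 988. The median of all genes moved by -0.20 with quantile normalization and -0.26 with the same total in MABs allo against saline at 3d. MABs allo and MABs allo-VEGF at 3d share replicate numbers, and the labels do not say whether these are pairs. Same-numbered samples correlated at 0.222, 0.1505, 0.07338 and 0.2535, and the other pairs at -0.2247 to 0.1998. Replicates 1, 2 and 4 correlated best with their own number, and replicate 3 did not. With the replicate block 0 members and 0 genes were called, with 1215 genes at an unadjusted p below 0.05 against 524 without it.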
